A study of Mus musculus with 6 samples.

Results

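The 10 genes described here are Ifi203, Ifi204, Ifi206, Ifi207, Ifi208, Ifi209, Ifi211, Ifi213, Ifi214 and Mndal, members of the mouse Ifi200 family, also called the PYHIN or AIM2-like receptor family. They were chosen by name, with earlier results of these data known, and all 10 were found among the 32285 genes of the deposited count tables. The cells came from female C57BL/6J mice of 10 to 12 weeks that carried a tumour grown from a breast cancer cell line derived from a brain metastasis. The line was injected either in the brain (called BrM, 3 libraries) or in the mammary fat pad (called MFP, 3 libraries), and no untreated or tumour-free tissue was among the libraries. Live CD45+ cells (DAPI negative, RedDot1 positive) were sorted from the dissociated tumours and profiled with the 10x Genomics Chromium 3′ assay, version 3. The labels do not say whether libraries of a site came from separate mice, so spreads and p-values below measure the variation between these libraries, which may be partly technical.

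Proteins of this family pair a pyrin domain, which binds other pyrin domains, with HIN domains, which bind DNA, although some members lack one of them. Many of the genes are induced by type I interferon. AIM2, the relative that gave the receptor group its name, assembles an inflammasome on cytosolic DNA, and Ifi204 (p204) is the mouse protein most often set beside human IFI16, which signals through STING. Mice carry more members than humans, and for several of them, among them Ifi208, Ifi213 and Ifi214, the function is poorly known.

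The 10 genes lie in 1 cluster on chromosome 1, between bases 173468485 and 173942672 of GRCm38, a span of 0.474 Mb. All 10 are annotated as protein coding in GENCODE release M21, 8 on the minus strand and 2 (Ifi208 and Ifi209) on the plus strand. In order along the chromosome, Ifi206 (ENSMUSG00000037849) spans chr1:173468485-173491041, Ifi214 (ENSMUSG00000070501) spans chr1:173519717-173535957 and Ifi213 (ENSMUSG00000073491) spans chr1:173566283-173599274. Ifi209 (ENSMUSG00000043263) follows at chr1:173630917-173647928 and Ifi208 (ENSMUSG00000066677) at chr1:173673675-173698395. The neighbours Ifi207 (ENSMUSG00000073490, chr1:173723427-173741747) and Ifi204 (ENSMUSG00000073489, chr1:173747293-173766943) come next. Mndal (ENSMUSG00000090272, chr1:173849126-173942491), Ifi211 (ENSMUSG00000026536, chr1:173896345-173913046) and Ifi203 (ENSMUSG00000039997, chr1:173920407-173942672) end the series. Aim2 lies just before the cluster, and Ifi202b and Ifi205 just after it.

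Some counts of these genes are uncertain because the copies resemble or overlap each other. The longest annotated Mndal transcript runs across Ifi211 and Ifi203 on the same strand, sharing 37 exonic bases with Ifi203 and 0 with Ifi211. A 3′ assay reads mainly the ends of transcripts, so the last 500 bases of each protein-coding transcript were compared as 75-base words against the transcripts of every other gene. Ifi209 and Ifi214 shared 60.1% of these words with each other, and Ifi211 shared 64.3%, mostly with Ifi205. The share was 14.6% for Ifi206, 11.4% for Ifi213, 6.10% for Mndal and 5.16% for Ifi208, and 0% for Ifi203, Ifi204 and Ifi207. Reads from shared stretches cannot be assigned to 1 gene, so levels of Ifi209, Ifi214 and Ifi211 are the least certain and may be too low.

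The promoters carry a common sequence near the start of the gene, shown here because it links members that differ widely in the cells that use them. RefSeq promoter windows (GRCm38.p6, 250 bases before to 50 after each annotated start) were matched by symbol for 9 of the 10 members. The interferon-response-like motif GAAANNGAAA, searched on both strands, was in at least 1 window of 8 members, against 3.99% of the 27025 genes with such windows. The overlapping word AAATCGAAA, the 9-base word that most members share and so chosen after the sequences had been seen, was in a window of 8 members and of 38 genes in all (0.141%). Each line gives up to 30 bases on both sides of the motif on the gene's own strand, with the motif in capitals (AAATCGAAA for Ifi209, GAAANNGAAA for the rest).
Ifi203: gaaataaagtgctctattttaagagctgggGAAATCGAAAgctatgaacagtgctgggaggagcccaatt
Mndal: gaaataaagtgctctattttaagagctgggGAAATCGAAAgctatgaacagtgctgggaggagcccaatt
Ifi206: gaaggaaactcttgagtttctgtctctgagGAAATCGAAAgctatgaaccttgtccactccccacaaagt
Ifi208: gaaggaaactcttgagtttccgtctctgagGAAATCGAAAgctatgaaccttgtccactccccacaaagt
Ifi213: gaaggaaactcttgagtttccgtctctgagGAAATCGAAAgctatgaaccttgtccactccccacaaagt
Ifi214: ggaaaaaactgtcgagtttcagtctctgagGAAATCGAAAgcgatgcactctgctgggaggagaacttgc
Ifi209: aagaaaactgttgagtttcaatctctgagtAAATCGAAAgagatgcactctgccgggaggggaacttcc
Ifi207: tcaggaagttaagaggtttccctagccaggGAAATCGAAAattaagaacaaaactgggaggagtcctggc
Ifi211: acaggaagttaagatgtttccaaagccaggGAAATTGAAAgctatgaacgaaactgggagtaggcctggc
The printed stretches of Ifi203 (chr1:173942488-173942557, minus strand) and Mndal (chr1:173880184-173880253, minus strand) are letter for letter the same, as are those of Ifi208 (chr1:173673577-173673646, plus strand) and Ifi213 (chr1:173599306-173599375, minus strand). The others are Ifi206 at chr1:173491319-173491388, Ifi214 at chr1:173535997-173536066, Ifi207 at chr1:173741811-173741880 and Ifi211 at chr1:173913044-173913113, all on the minus strand, and Ifi209 at chr1:173630751-173630819 on the plus strand. The motif began 35 bases before the RefSeq start of the window in Ifi203, 36 in Mndal, 37 in Ifi211 and 40 in Ifi206. It began 41 bases before that start in Ifi207, 58 in Ifi208, 73 in Ifi213, 79 in Ifi214 and 78 in Ifi209. These starts are not always those of the gene spans given above. Another Ifi203 window held no such motif, and the printed Mndal stretch lies inside the Mndal span. A match of letters is a description and shows no binding.

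The 6 libraries held 50692794 to 70944735 UMIs (unique molecular identifiers, each standing for 1 captured RNA molecule) in 7083 to 8986 cell barcodes. After a filter, 46891 cells remained, with a median of 5006.5 to 8277.0 UMIs per cell. No annotation of cells was used; each cell was assigned to 1 of 14 classes from UMIs of lineage markers, none of them a family member, which placed 32339 cells. The libraries fell into 2 kinds whose cell make-up differed as much within a site as between sites. BrM 1, MFP 1 and MFP 2 had lower totals and 10 to 33 macrophage-like cells each, whereas BrM 2, BrM 3 and MFP 3 had higher totals and 1685 to 2148. The monocyte gene Lyz2 was higher in NK-like cells of the second kind. It was at 102 to 361 counts per 1000000 UMIs (CPM) in BrM 2, BrM 3 and MFP 3. In the other libraries it was at 22.8 to 70.7. The gap was small in CD4 conventional T-like cells, with Lyz2 at 125 CPM in MFP 1 against 128 in MFP 3. Whether this Lyz2 was RNA of other cells was not tested. Between 10 and 39 barcodes were shared by a pair of libraries. In the text, a level is the UMIs of a gene over all UMIs of the cells of that class in that library, in CPM, given only for 20 or more cells. Since this assay counts molecules at 1 end of the transcript, levels are not divided by length.

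The family was used in every class, but by different members. Monocyte-like cells had the highest summed level of the 10 genes, 3207 ± 677 CPM (SD, n = 6 libraries), followed by cDC2-like (type 2 conventional dendritic) cells at 1660 ± 705 (n = 5), neutrophil-like cells at 1484 ± 370 (n = 3) and macrophage-like cells at 1323 ± 245 (n = 5). The remaining 10 classes lay between 635 ± 64.1 in mature DC-like cells (n = 3) and 1064 ± 25.9 in microglia-like cells (n = 2). The monocyte-like range, 2233 to 4099 CPM, overlapped that of cDC2-like cells, 1050 to 2562, and cleared those of neutrophil-like and macrophage-like cells. The 6 lymphoid classes ran from 770 ± 78.6 CPM in NK-like to 1046 ± 264 in Treg-like cells. The NK-like range, 710.4 to 894 CPM, lay below that of CD4 conventional T-like cells, 921 to 1249, and the other pairs of lymphoid classes overlapped.

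**Figure D1:**
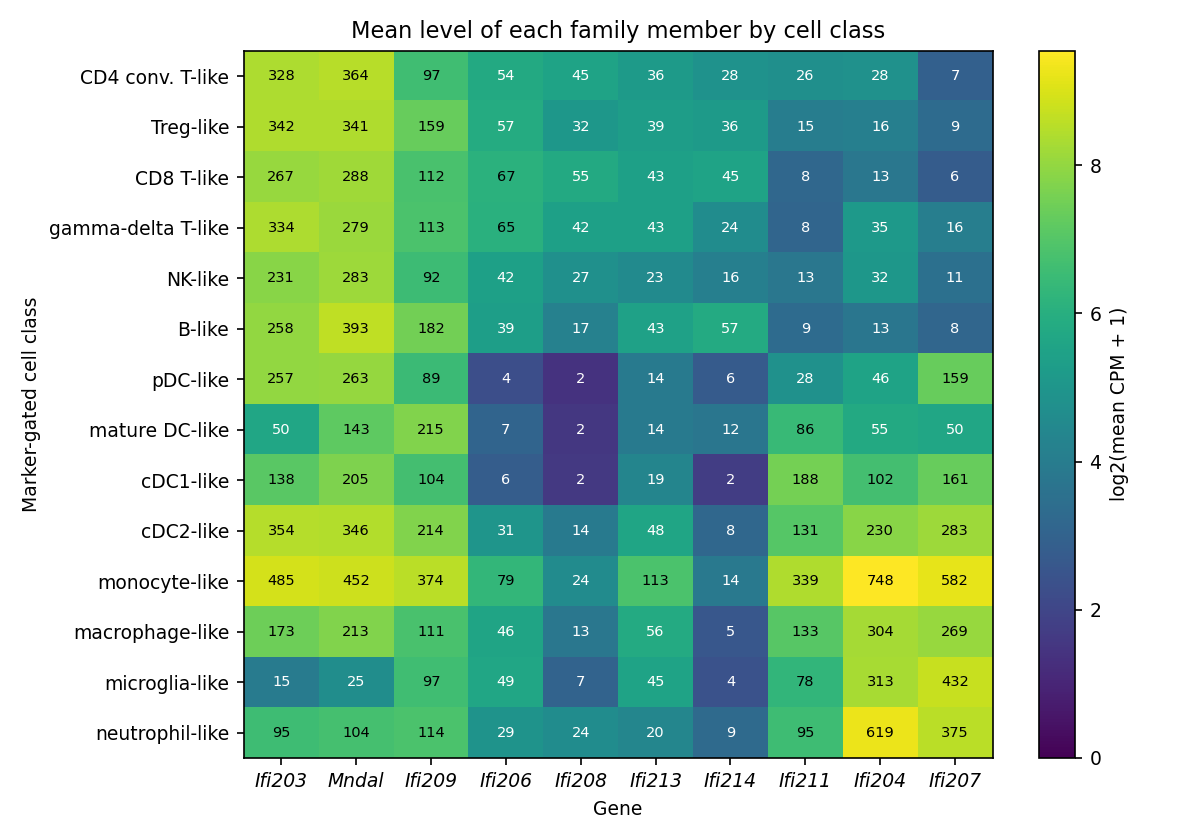
Mean level of each gene (columns) in each marker-gated cell class (rows), over the libraries with 20 or more cells of the class; the colour is log2(mean CPM + 1) and the printed value is the mean CPM. Ifi204 and Ifi207 are at 269 CPM or more in monocyte-like, macrophage-like, microglia-like and neutrophil-like cells and at 34.5 or less in the 6 lymphoid classes.

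The make-up of the family separated lymphoid from myeloid cells. Ifi204, Ifi207 and Ifi211 together took 2.62% ± 3.08 of the family's UMIs in B-like cells (SD, n = 6) and 7.17% ± 2.98 in NK-like cells, the lowest and the highest mean of the 6 lymphoid classes. They took 52.0% ± 1.20 in monocyte-like cells (n = 6), 53.7% ± 2.53 in macrophage-like cells (n = 5), 73.5% ± 6.17 in neutrophil-like cells (n = 3) and 77.3% ± 0.816 in microglia-like cells (n = 2). The dendritic classes lay between, from 26.7% ± 1.83 in pDC-like (plasmacytoid dendritic) cells to 48.0% ± 4.45 in cDC1-like cells (both n = 4). These 3 genes were grouped after their levels had been seen, so the split is a description.

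**Figure D2:**
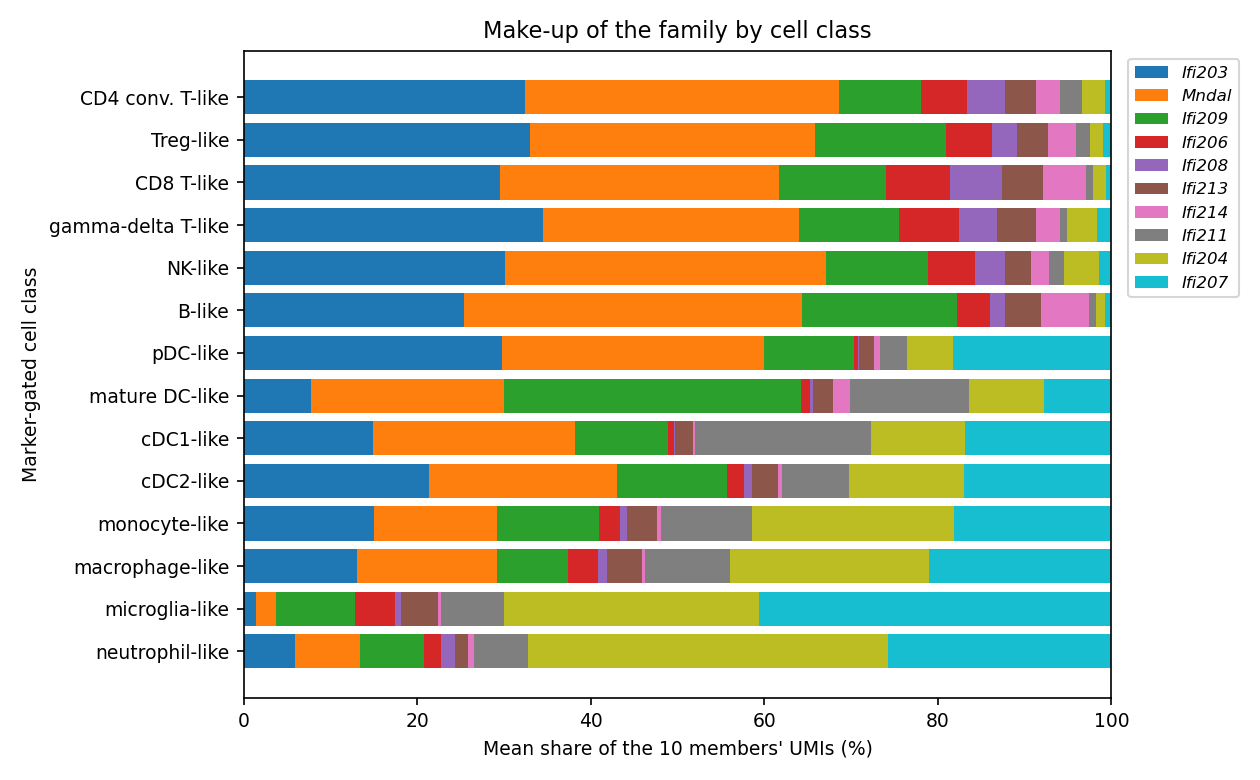
Mean share of the 10 members' UMIs taken by each gene (stacked bars, percent) in each cell class. Ifi203 and Mndal fill most of the bar in lymphoid classes and 1.40% and 2.35% of it in microglia-like cells. There, Ifi207 takes 40.6% and Ifi204 29.4%.

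In lymphocytes Ifi203 and Mndal led, with Ifi209 as the third member. In CD4 conventional T-like cells (Cd4 positive, Foxp3 negative), Ifi203 was at 398, 323 and 314 CPM in BrM 1, 2 and 3 and at 313, 330 and 287 in MFP 1, 2 and 3. Mndal was at 384, 341 and 330 CPM in the BrM libraries and at 342, 405 and 384 in the MFP libraries. The 2 genes could not be ranked against each other in these cells, since their ranges overlapped. In NK-like cells Mndal (283 ± 10.5 CPM, n = 6) lay above Ifi203 (231 ± 22.1) in each of the 6 libraries. Ifi209 lay between 91.7 ± 26.8 in NK-like and 182 ± 63.4 CPM in B-like cells.

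Each member was compared between classes of lymphocytes with edgeR on the summed UMIs, with the library as a block. B-like cells had Ifi214 at 63.5, 26.7 and 52.8 CPM in BrM and at 54.2, 47.1 and 95.5 in MFP, against 21.9 to 43.8 in CD4 conventional T-like cells. Ifi204 and Ifi211 passed the filter on low counts through the CD4 conventional T-like cells, having reached its level of 7.02 CPM in 3 and 2 of 6 B-like libraries, so no test of them is given. Of the other 7 members tested against those cells, 4 differed in B-like cells (edgeR adjusted p under 0.05). This share is near the 49.9% of all 7998 genes that did. Ifi214 was higher by 1.09 on the log2 scale (SE 0.19, adjusted p = 0.00025) and Ifi209 by 1.09 (SE 0.16, adjusted p = 8.0e-05), and Mndal by 0.27 (SE 0.10, adjusted p = 0.044). Ifi208 was lower, with a log2 difference of -1.42 (SE 0.24). It reached the level of the filter in 5 of 6 B-like libraries and in 6 of the other class. Ifi208 thus needed the other class to pass. Its difference is given as a description, and its place in the count of 4 of 7 is not read as a result. The call of Mndal was lost with library-size scaling (edgeR adjusted p = 0.48).

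CD8 T-like cells had the highest Ifi208 of any class, 54.8 ± 17 CPM (n = 6), though the next class, CD4 conventional T-like at 45.3 ± 15.9, overlapped it. Within libraries, 7 of 10 members differed between CD8 and CD4 conventional T-like cells, where 30.8% of all 10521 genes did. Higher in CD8 T-like cells were Ifi214 (log2 difference 0.81, SE 0.08, edgeR adjusted p = 3.9e-05), Ifi206 (0.47, SE 0.11), Ifi208 (0.42, SE 0.08), Ifi213 (0.37, SE 0.08) and Ifi209 (0.35, SE 0.06). Ifi204 (-1.08, SE 0.18) and Ifi211 (-1.60, SE 0.22) were lower. In CD8 T-like cells Ifi204 was at 13.9, 4.04 and 4.55 CPM in BrM 1, MFP 1 and MFP 2. It was at 16.8, 21.6 and 15.7 CPM in BrM 2, BrM 3 and MFP 3, the libraries with more Lyz2 in lymphocytes. The part of RNA from other cells in these values was not tested. With library-size scaling Ifi213 lost its call (edgeR adjusted p = 0.058). Ifi211, read in part from sequence shared with Ifi205, was at 15.0 to 30.8 CPM in CD4 conventional T-like and at 3.34 to 13.2 in CD8 T-like cells, and the ranges did not overlap.

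NK-like cells differed from CD4 conventional T-like cells in 7 of 10 members, all lower, where 44.7% of 9950 genes differed and 23.1% were lower. Among them were Ifi211 (-1.13, SE 0.16), Ifi214 (-0.73, SE 0.13), Ifi208 (-0.72, SE 0.10), Ifi213 (-0.70, SE 0.14) and Ifi203 (-0.44, SE 0.06, edgeR adjusted p = 0.00011). Treg-like cells (Foxp3 positive) differed from CD4 conventional T-like cells in 3 of 9 members, a share near the 27.8% of 8255 genes that did. Ifi204, which reached the level of the filter in 3 of 6 Treg-like libraries and in 6 of the other class, is left out of that count. Ifi209 was higher in Treg-like cells (0.63, SE 0.16, edgeR adjusted p = 0.0081), and Ifi211 (-0.86, SE 0.19) and Ifi208 (-0.73, SE 0.21) were lower. Ifi203 and Mndal did not pass in that pair. With a stricter gate the calls of Ifi213 and Ifi206 in NK-like cells (edgeR adjusted p = 0.050 and 0.25) and of Ifi208 in Treg-like cells (0.081) were lost.

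**Figure D3:**
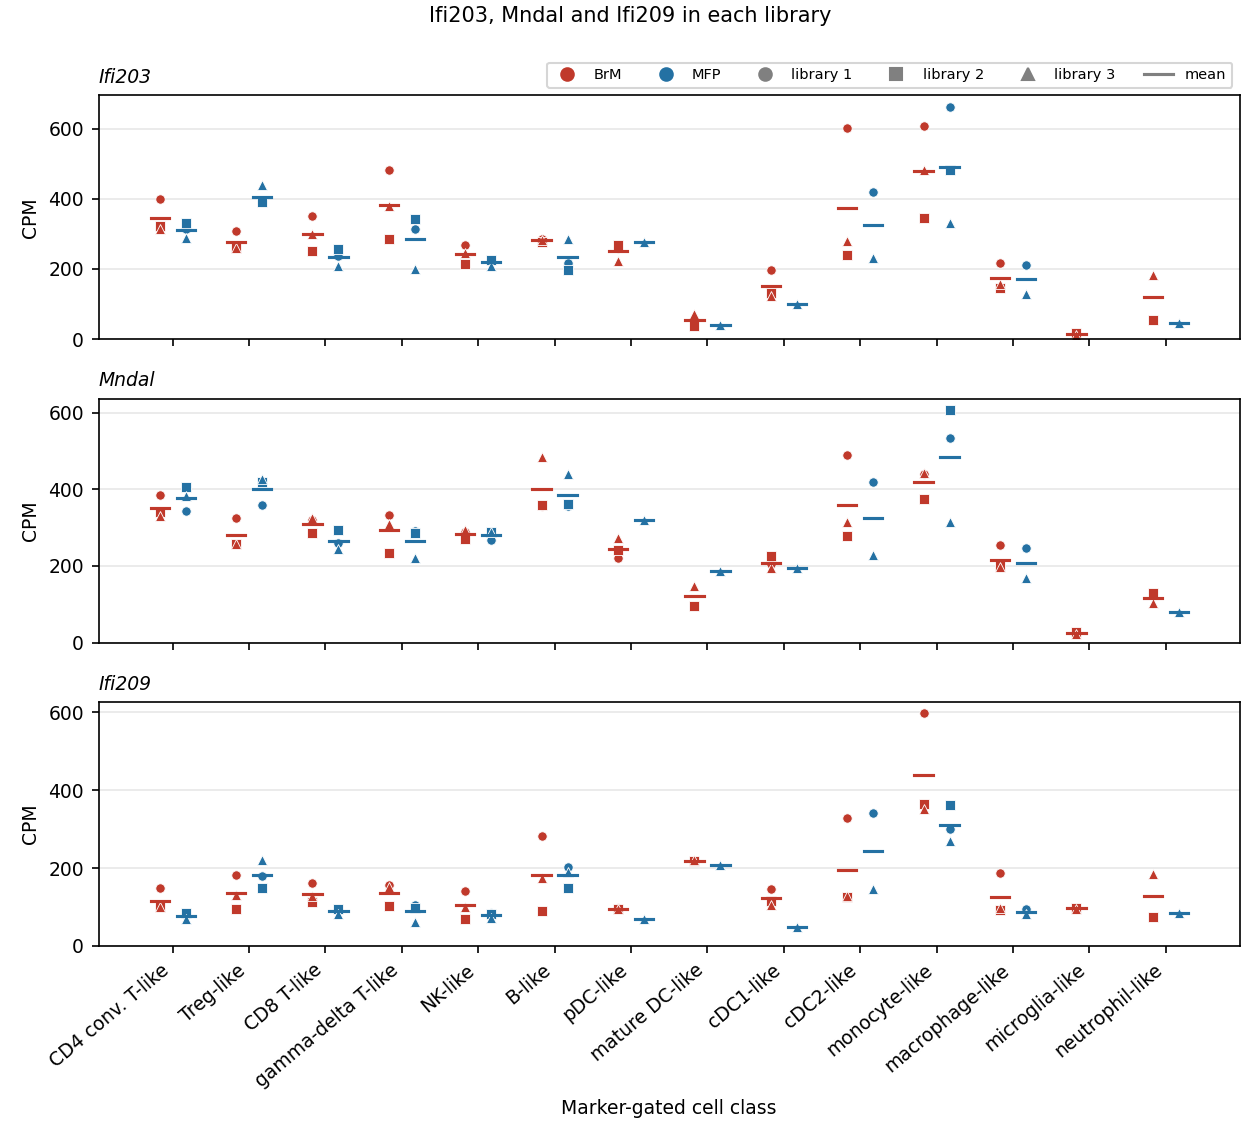
Level in CPM (vertical axes, starting at 0) of Ifi203, Mndal and Ifi209 in each cell class, with 1 point per library (red BrM, blue MFP, shape the library number) and a bar at the mean of a site. Ifi203 and Mndal stand at 11.2 to 28.4 CPM in the 2 BrM libraries with microglia-like cells, and in Treg-like cells the 3 BrM points of both genes lie under the 3 MFP points.

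Monocyte-like cells had the highest mean of 8 of the 10 members, Ifi208 and Ifi214 being the exceptions. Ifi204, the p204 sensor, was at 954, 649 and 741 CPM in BrM 1, 2 and 3 and at 810, 824 and 507 in MFP 1, 2 and 3. Its neighbour Ifi207 was at 749, 527 and 547 CPM in BrM and at 648, 627 and 392.3 in MFP. Ifi211 was at 446, 268 and 302 CPM in BrM and at 353, 434 and 228 in MFP. In each gene the lowest monocyte-like value came from MFP 3 and the highest from BrM 1, and the sites overlapped.

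Compared with macrophage-like cells of the same libraries, monocyte-like cells were higher in 9 of 9 members, where 38.2% of 8459 genes differed and 19.9% were higher. Ifi214, which reached the level of the filter in 2 of 5 macrophage-like libraries and in 5 of the other class, is not counted. The log2 differences ran from 0.91 (SE 0.12, edgeR adjusted p = 4.1e-05) for Ifi206 to 1.81 (SE 0.11, adjusted p = 5.5e-08) for Ifi209. Ifi203 differed by 1.47 (SE 0.11), Ifi211 by 1.38 (SE 0.12) and Ifi204 by 1.27 (SE 0.11). Macrophage-like cells of the 5 libraries had Ifi204 between 247 and 369 CPM and Ifi207 between 248 and 284, and the sites overlapped in both.

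Neutrophil-like cells, found in 3 libraries, used Ifi204 first: 397 CPM in BrM 2, 727 in BrM 3 and 732 in MFP 3. Ifi207 followed at 329, 439 and 357 CPM, and Ifi203 was at 54.8, 183 and 46.1. With 1 MFP library, no test of site was made in these cells. The value of 183 CPM for Ifi203 in BrM 3 was the highest of the 3, and Ifi209 was also at 183 CPM in that library against 74.0 and 83.3 in the others.

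**Figure D4:**
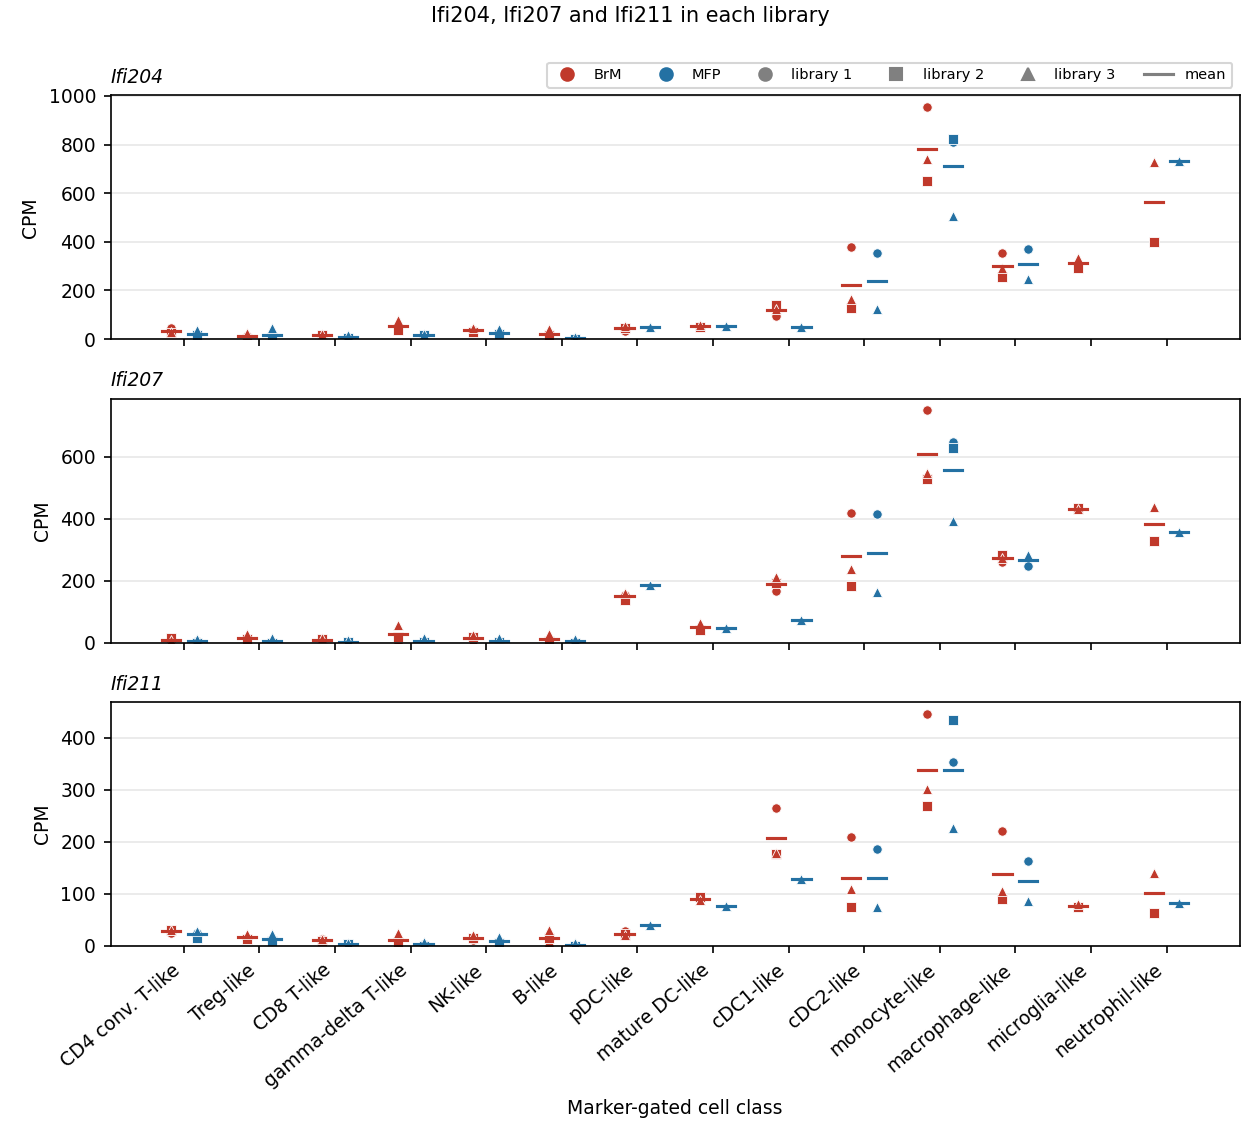
Level in CPM (vertical axes, starting at 0) of Ifi204, Ifi207 and Ifi211 in each cell class, with 1 point per library (red BrM, blue MFP, shape the library number) and a bar at the mean of a site. Monocyte-like cells reach 954 CPM of Ifi204 and 749 of Ifi207, and pDC-like cells have Ifi207 at 138 to 186 CPM with Ifi204 at 32.1 to 54.4.

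Microglia-like cells, the resident macrophages of the brain, had little of the pair that led in lymphocytes. They were found in 20 or more cells in BrM 2 (451 cells) and BrM 3 (296 cells). Among their leading genes were Cxcl13, Sparc, Olfml3, Fcrls and Trem2, of which Sparc, Olfml3 and Fcrls were markers of the gate itself. Ifi203 was at 18.5 and 11.2 CPM and Mndal at 28.4 and 21.5, whereas macrophage-like cells of the same libraries had Ifi203 at 147 and 158 and Mndal at 199 and 196. The log2 differences were -3.30 for Ifi203 (SE 0.11, edgeR adjusted p = 2.8e-25) and -2.97 for Mndal (SE 0.09, adjusted p = 2.3e-26), with 2 libraries per class. Of all 11946 genes tested in this pair 44.5% differed.

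Other members were not lower to that extent. Ifi207 was higher in microglia-like cells, at 434 and 429 CPM against 284 and 273 (log2 difference 0.62, SE 0.07, edgeR adjusted p = 2.6e-09), and led the family there. Ifi206 was higher by 0.39 (SE 0.10) and Ifi204 by 0.18 (SE 0.07), while Ifi211 (-0.34, SE 0.08) and Ifi208 (-0.72, SE 0.19) were lower. Ifi209, Ifi213 and Ifi214 did not pass the test, with log2 differences of 0.02 (SE 0.07), 0.08 (SE 0.09) and -0.22 (SE 0.28). The gates for macrophage-like and microglia-like cells share C1q genes, and how many cells of 1 class fell into the other was not measured.

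The dendritic classes used different members. In cDC2-like cells Ifi203 (354 CPM) and Mndal (346) had the highest means, and in cDC1-like cells Mndal (204 CPM) and Ifi211 (188). In cDC1-like cells (Xcr1, Clec9a, Wdfy4), which take up dead cells and cross-present antigen, Ifi211 was at 266, 178 and 180 CPM in BrM 1, 2 and 3 and at 129 in MFP 3. Against cDC2-like cells of the same libraries it was higher by 0.76 on the log2 scale (SE 0.16, edgeR adjusted p = 0.0081). Ifi208 reached the level of the filter in 0 of 4 cDC1-like libraries and is not counted. Of the other 8 members tested in this pair 5 differed, where 19.5% of 7869 genes did, and Ifi211 was the one that was higher. Lower were Ifi206 (-2.26, SE 0.31), Ifi203 (-1.23, SE 0.14), Ifi209 (-0.75, SE 0.23) and Mndal (-0.62, SE 0.17), and Ifi209 lost its call with a stricter gate (edgeR adjusted p = 0.16). Ifi206 and Ifi213 reached the level of the filter in 3 of 4 cDC1-like and 4 of 4 cDC2-like libraries. Both needed the cDC2-like cells to pass, so the difference of Ifi206 is given as a description. The places of both genes in the count of 5 of 8 are not read as a result. Ifi205, which is outside the 10 genes and shares 3′ sequence with Ifi211, was at 694, 350 and 358 CPM in BrM and at 370 in MFP 3 in cDC1-like cells. Its mean of 443 CPM there was above that of any of the 10 members.

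Mature DC-like cells (Ccr7, Fscn1, Ccl22) were led by Ifi209, at 217 and 221 CPM in BrM 2 and BrM 3 and 208 in MFP 3. Their Ifi203 was low, at 37.7, 71.4 and 40.4 CPM. In pDC-like cells, the main producers of type I interferon, Ifi203 (257 ± 24.3 CPM, n = 4) and Mndal (263 ± 43.2) led as in lymphocytes, but Ifi207 was at 153, 138, 160 and 186 CPM in BrM 1, 2, 3 and MFP 3. Ifi206 and Ifi208 were near 0 in pDC-like cells, at 3.95 ± 3.10 and 1.66 ± 1.69 CPM. Those levels rest on few molecules, and in BrM 1 no UMI of Ifi206 was found, which allows up to 12.0 CPM.

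Low levels of the myeloid members in lymphocytes have to be read beside RNA from other cells. In B-like cells Ifi204 was at 1.41, 1.39 and 2.48 CPM in BrM 1, MFP 1 and MFP 2, and at 16, 43.5 and 10.6 in BrM 2, BrM 3 and MFP 3, the libraries with more Lyz2 in lymphocytes. Ifi207 in CD4 conventional T-like cells followed the same split, at 2.69, 3.61 and 0 CPM (0 UMIs in MFP 2, which allows 0.554 CPM) against 13.8, 8.16 and 11.9. In the libraries of higher total these levels were 1.49% to 5.87% of the monocyte-like level of the same library. Lyz2 in the same cells and libraries was at 0.748% to 2.66% of its monocyte-like level. For CD4 conventional T-like cells, Lyz2 at 125 CPM in MFP 1 was close to its 128 in MFP 3. How much of the Ifi204 and Ifi207 levels was RNA from other cells was not tested.

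Ifi204 in NK-like and T-like cells was also set beside Ifi207 of the same cells. In BrM 1 it was at 39.5 CPM in NK-like, 44.7 in CD4 conventional T-like and 41.1 in gamma-delta T-like cells, with Ifi207 at 4.58, 2.69 and 2.74. The ratio of Ifi204 to Ifi207 UMIs there was 8.62, 16.7 and 15.0, against 1.27 in monocyte-like cells of that library. In NK-like cells the ratio was 9.08 in MFP 1 and 21.6 in MFP 2, against 1.25 and 1.31 in monocyte-like cells. It was 1.53 in BrM 2, 1.95 in BrM 3 and 2.74 in MFP 3, against 1.23, 1.35 and 1.29. In CD4 conventional T-like cells it was 3.42 in MFP 1, 1.95 in BrM 2, 3.45 in BrM 3 and 3.24 in MFP 3, and MFP 2 had no UMI of Ifi207. The part of RNA from other cells in these values was not tested.

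Between the tumour sites, 0 of the 10 members passed the threshold in any of the 9 classes with enough libraries. The earlier choice of the genes used this contrast, so all values and calls on it, here and below, describe these libraries and support nothing about the family. In all, 85 of 90 combinations of member and class passed the filter on low counts. The edgeR fold change was above 0 (higher in BrM) in 65 of them (76.5%, against 50.3% over all genes and classes), and 18 had an unadjusted p under 0.05 (21.2%, against 13.6%). The share of all genes with such a p ran from 6.02% in CD8 T-like cells, where 5 of 10 members had one, to 26.5% in Treg-like cells, where 2 of 9 did. The 5 left out were Ifi207 in Treg-like cells, Ifi211 in gamma-delta T-like cells and Ifi204, Ifi207 and Ifi211 in B-like cells. Without BrM 1, edgeR called 5 of 10 members in Treg-like cells (20.1% of all genes in that fit) and 2 of 6 in B-like cells (9.69%), and with the stricter gate 5 of 10 in macrophage-like cells (23.5%). DESeq2 called 1 member in CD8 T-like cells (Ifi211; 0.0746% of all genes) and 1 in gamma-delta T-like cells (Ifi204; 0.589%). Over all genes, and with all libraries and the usual gate, edgeR called 0% in NK-like, CD8 T-like, CD4 conventional T-like and B-like cells, 0.0264% in gamma-delta T-like, 0.0631% in cDC2-like, 0.719% in monocyte-like, 4.92% in macrophage-like and 5.81% in Treg-like cells.

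The median log2 fold change of the members, BrM over MFP, was 0.41 in NK-like, 0.47 in CD8 T-like and 0.38 in CD4 conventional T-like cells (10 members each). It was 0.33 in B-like (7 members), 0.26 in macrophage-like, 0.15 in monocyte-like, 0.13 in gamma-delta T-like (9 members) and 0.04 in cDC2-like cells. Treg-like cells had a negative median, -0.46 (9 members). The median over all genes tested lay between -0.01 and 0.02 in each class. Several of these medians rest on 1 library. Without BrM 1 the median fell to 0.18 in NK-like and 0.056 in CD4 conventional T-like cells, and it was -0.042 in monocyte-like, -0.34 in cDC2-like and 0.026 in gamma-delta T-like cells. Without MFP 3 it was -0.0047 in macrophage-like, -0.10 in monocyte-like, -0.57 in cDC2-like, 0.0061 in gamma-delta T-like and 0.95 in B-like cells. It was 0.58 in cDC2-like cells without MFP 1, 0.40 in gamma-delta T-like cells without BrM 2 and 0.15 in B-like cells without MFP 2. Library make-up moved with these values: within the libraries of lower total (BrM 1 against MFP 1 and 2) the median of the members was 0.59 in CD4 conventional T-like and 0.11 in Treg-like cells, and within those of higher total (BrM 2 and 3 against MFP 3) it was 0.04 and -0.93. Its part in the pooled values was not tested.

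**Figure D5:**
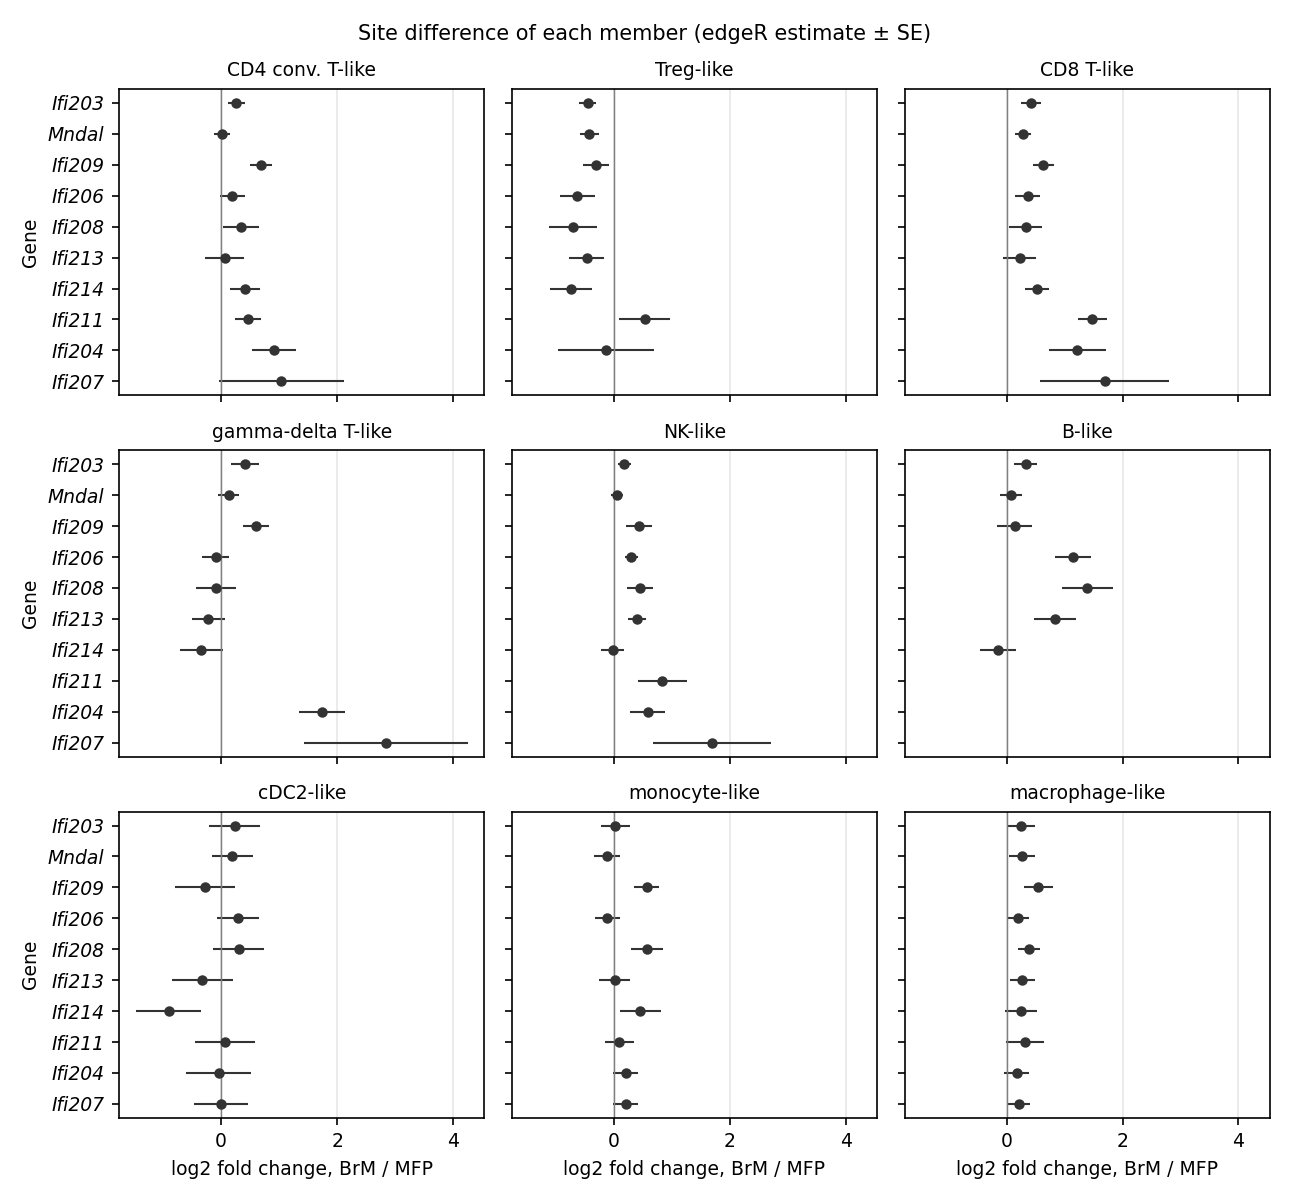
Log2 fold change, BrM over MFP (horizontal axes), of each member that passed the filter, with its SE as a bar, in the 9 classes tested with edgeR. Most points lie right of 0, those of Treg-like cells mostly left of it, and none passed the threshold after adjustment.

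Ifi209 had a fold change above 0 in 7 of the 9 classes. In CD4 conventional T-like cells it was at 148, 100.3 and 100.5 CPM in BrM 1, 2 and 3 and at 79.1, 84.8 and 69.7 in MFP 1, 2 and 3. In CD8 T-like cells it was at 162, 112 and 129 CPM in BrM and at 93.0, 94.7 and 82.2 in MFP. BrM 1 was the highest library in both classes, and the sites did not overlap in either. The log2 fold changes were 0.69 (SE 0.20) and 0.64 (SE 0.18), with 3 libraries per site. Taking only the libraries of lower total they were 0.89 and 0.86, and taking those of higher total 0.71 and 0.63. In monocyte-like cells Ifi209 was at 598, 364 and 352 CPM against 301, 362 and 269, which overlapped (0.57, SE 0.22).

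In CD4 conventional T-like cells, Ifi209 was 1 of 10 members whose BrM libraries all lay above MFP, as 7.49% of all genes tested did. In CD8 T-like cells Ifi209 and Ifi211 were 2 of 10 (3.53% of all genes). Ifi211 was at 12.5, 10.0 and 13.2 CPM in BrM and at 3.34, 4.0 and 6.17 in MFP there (log2 fold change 1.48, SE 0.25). The monocyte-like cells of the same libraries had 268 to 446 CPM in BrM and 228 to 434 in MFP, and the part of their RNA in the CD8 T-like values was not tested. In NK-like cells the sites were apart for Ifi206 and Ifi213, 2 of 10 members (6.62% of all genes). Ifi206 was at 51.4, 42.6 and 44.0 CPM in BrM and at 38.7, 38.4 and 38.5 in MFP (log2 fold change 0.30, SE 0.11).

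In Treg-like cells 8 of 9 members had a fold change below 0. Ifi203 was at 309, 261 and 261 CPM in BrM 1, 2 and 3 and at 390, 389 and 440 in MFP 1, 2 and 3. Mndal was at 325, 257 and 258 CPM in BrM and at 360, 418 and 428 in MFP. Each MFP library lay above each BrM library for both genes, 2 of 9 members (22.2%), a share near the 19.7% of all genes tested that did so. The log2 fold changes were -0.46 (SE 0.15) and -0.43 (SE 0.16). Within the libraries of lower total they were -0.31 and -0.23, and within those of higher total -0.55 and -0.53.

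The site difference in a class minus that in CD4 conventional T-like cells was fitted as an interaction, on the same contrast and so again as a description. For Treg-like cells it was -0.67 (SE 0.14) for Ifi203 and -0.94 (SE 0.21) for Ifi209. No member was called for Treg-like, CD8 T-like, NK-like or B-like cells, where 0.0445%, 0.223%, 0.00933% and 0% of all genes were.

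In gamma-delta T-like cells Ifi204 was at 41.1, 38.9 and 78.4 CPM in BrM and at 8.34, 18.0 and 22.4 in MFP, and the sites did not overlap (1 of 9 members, 10.7% of all genes). The log2 fold change was 1.75 (SE 0.40), with 1.60 in the libraries of lower total alone and 1.43 in those of higher total alone. The MFP 1 value of Ifi204 lay below the level of the filter on low counts, so this gene needed its BrM libraries to pass. Its fold changes and its place in that count are therefore not read as a result. Ifi207, the other main myeloid member, was at 2.74, 19.4 and 57.3 CPM against 0, 0.665 and 14.4 in the same cells. Lyz2 was at 16, 223 and 200.5 CPM in BrM and at 4.77, 1.33 and 94.5 in MFP, so a monocyte gene moved in the same direction. Its part in the Ifi204 difference was not tested.

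In B-like cells Ifi206 was at 42.4, 69.5 and 55.9 CPM in BrM and at 25.0, 22.3 and 21.2 in MFP, and Ifi208 at 24.7, 21.4 and 27.9 against 6.95, 11.2 and 10.6. For both genes the sites were apart (2 of 7 members, 7.51% of all genes), with log2 fold changes of 1.15 (SE 0.31) and 1.39 (SE 0.44). Ifi208 passed the filter on low counts through its BrM libraries alone. Its fold change and its place in that count are therefore not read as a result. BrM 2, BrM 3 and MFP 3 held 49 to 72 B-like cells each, so each of these values rests on few molecules. In cDC2-like cells, with 2 MFP libraries, Ifi214 was lower in BrM, at 7.60, 3.50 and 6.12 CPM against 15.5 and 8.38 (1 of 10 members, 15.4% of all genes). It passed the filter on low counts through its MFP libraries alone, so that count is not read as a result. In monocyte-like and macrophage-like cells the sites overlapped for 10 of 10 members, while they were apart for 17.1% and 30.4% of all genes.

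Genes of the surrounding pathway were put to the same test of site. It called 4.92% of all genes in macrophage-like, 0.719% in monocyte-like, 5.81% in Treg-like cells and 0.0631% or less in the other classes. The calls below stand beside those shares and are not read as a result about the pathway. Of 3 relatives in the files, Aim2 had class means between 21.1 and 67.1 CPM, and Ifi202b had 9 UMIs in all. Ifi205 was higher in BrM macrophage-like cells (log2 fold change 0.83, SE 0.20, edgeR adjusted p = 0.027), at 70.2, 29.0 and 36.6 CPM against 28.3 and 21.1. Of 16 genes of nucleic-acid sensing and STING signalling and 9 of the AIM2 inflammasome, 0 were called in any class by edgeR. Of 13 genes of interferon receptor signalling, 1 was called, Usp18 in monocyte-like cells (1.07, SE 0.18, adjusted p = 0.020), a deISGylase that dampens the receptor. Of 28 other interferon-stimulated genes, 2 were called, both in macrophage-like cells: Isg20, an exonuclease, was higher (1.11, SE 0.23, adjusted p = 0.012) and Oas2, which makes the activator of RNase L, was lower (-0.68, SE 0.18, adjusted p = 0.043). None of the 3 macrophage-like calls was made by DESeq2 (adjusted p = 1.00 for each) or by edgeR without MFP 3 (adjusted p = 0.81 for Ifi205, 0.77 for Isg20 and 0.60 for Oas2), where the lone MFP library is assumed to vary like the others. Those of Ifi205 and Oas2 were also lost without BrM 2 or without BrM 3 (adjusted p of 0.32 to 1.00) and with the replicate block (0.13 and 0.84), that of Ifi205 with library-size scaling (0.055), and that of Usp18 with the stricter gate, without the top 5% of cells and without BrM 2, BrM 3, MFP 1 or MFP 2 (0.053 to 0.16).

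The interferon-stimulated genes outside the family were described in the same way. Their median log2 fold change was 0.32 in NK-like, 0.38 in CD8 T-like and 0.40 in CD4 conventional T-like cells and -0.23 in Treg-like cells. Within the libraries of lower total these medians were 0.30, 0.49, 0.37 and 0.20, in the same order. Within those of higher total they were 0.016, 0.33, 0.39 and -0.77. Each of these fits holds 1 library on 1 side. With all libraries, 28 of 28 were above 0 in CD8 T-like cells (50.8% of all genes) and 6 of 23 in Treg-like cells (49.2%). Among the pathway genes in CD4 conventional T-like cells, the largest fold changes were those of Il1b (1.96, SE 1.43) and Oasl1 (1.31, SE 0.32), neither of which was called.

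The genes outside the family whose levels followed each member most closely were found over the 68 sums of a class in a library, among 5592 genes. These sums share libraries, depth and free RNA, so the coefficients are a description. Ifi207 was closest to Gpr35 (Pearson r = 0.97 on log2(CPM + 1)) and Cd300c2 (0.96), Ifi204 to Atf3 and Tnfrsf1a (both 0.92), and Ifi211 to Ifitm3 and Ms4a6c (both 0.90). Ifi203 and Mndal had the same closest genes, Itgb7 (0.78 and 0.74) and S100a10 (0.76 and 0.74), and were closer to each other (0.91). Ifi206 was closest to Gbp9 (0.81) and Cotl1 (0.80), and Ifi208 to Ddx58 (0.82), the RNA sensor RIG-I, and Ms4a4b (0.80). Ifi214 was closest to Gm8369 (0.85) and Dgka (0.84), Ifi209 to Samhd1 (0.71) and Bcl10 (0.67), and Ifi213 to Ms4a6b (0.70) and AI504432 (0.66). Within the family, Ifi204 and Ifi207 (0.90), Ifi204 and Ifi211 (0.88) and Ifi206 and Ifi208 (0.85) were also close, and Ifi207 and Ifi214 were opposed (-0.71).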

How the data were processed

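Per the submitters' processing notes, Cell Ranger 4.0 and mm10 were used, and which gene annotation was counted is not given in the sources used here. All deposited values are raw UMI counts per gene and cell, in 1 matrix per library with the same 32285 genes. Barcodes under 500 UMIs, under 200 genes or over 10% mitochondrial UMIs were removed. Classes were gated on UMIs of fixed markers; cells passing the gates of 2 lineages (726) were left out as likely doublets, no doublet caller was run, and 8206 T cells without a subset and 5620 cells without a gate were not used. UMIs were summed per class and library with 20 or more cells and tested with edgeR 4.0.16 in R 4.3.3 (TMM scaling, filterByExpr, quasi-likelihood F-test, Benjamini-Hochberg adjustment over all genes tested, threshold 0.05). The SE is the log2 fold change over the square root of F. Comparisons between classes used the library as a block. Scripts were tested on simulated data. DESeq2 1.42.0, other scalings, filters, gates and left-out libraries were alternatives. The sites' shared replicate numbers were checked as pairs, with the result given under the processing alternatives.

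The 10 members and the gene lists were chosen with earlier results of these data known. Named were the members, the 2 genes outside the family most correlated with each, and from each list the genes past the threshold or, in CD4 conventional T-like cells, the 2 with the largest fold change. Intervals given for counts of 0 (3 counts over the class total) cover counting error only. Which library was run on which sequencer was not given, and the split into libraries of lower and higher total was made from the files. Cells of a library are not replicates, and a lower CPM of a class cannot be told from a change in its mixture of cells.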

Additional observations from a re-analysis of the deposited data

How the results depend on the processing

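Between BrM and MFP, 0 members were called in each class when the scaling was by library size or the top 5% of cells by UMIs were removed. Same-numbered libraries did not all deviate together. In NK-like cells their deviations correlated by 0.54, -0.34 and 0.34 for numbers 1, 2 and 3. BrM 1 and MFP 2, of different numbers, correlated by 0.57 in these cells. The numbers were therefore not taken as pairs, and with the replicate block 0 members were called in each class.

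Percentages in this paragraph are the share of all genes called in the same fit. DESeq2 called 1 member in CD8 T-like (0.0746%) and 1 in gamma-delta T-like cells (0.589%). With no filter 1 was called in CD4 conventional T-like (Ifi209; 2.05%), 2 in gamma-delta T-like (2.26%) and 1 in monocyte-like cells (Ifi209; 2.47%), and with the library total as a term 1 (1.28%), 3 (9.06%) and 1 (3.75%). The stricter gate gave 5 in macrophage-like cells (23.5%). Leaving out 1 library gave 0 to 5 in Treg-like and 0 to 2 in B-like cells, the highest counts without BrM 1 (20.1% and 9.69%), and 0 in the other classes. In 2 alternatives chosen after seeing the data, the libraries were split by total. Within the lower total 6 were called in NK-like (2.89%), 7 in CD8 T-like (2.22%), 6 in CD4 conventional T-like (9.47%), 3 in gamma-delta T-like (9.38%), 1 in B-like (0.709%) and 1 in monocyte-like cells (1.81%). Within the higher total 5 were called in Treg-like (16.3%), 5 in gamma-delta T-like (9.96%) and 3 in macrophage-like cells (18.8%). These fits hold 1 library on 1 side, which is assumed to vary like the others.

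Counts of calls over all genes moved more. They were 4 to 1415 in Treg-like cells (397 as reported), 3 to 2975 in macrophage-like (601), 0 to 607 in monocyte-like (51), 0 to 1703 in cDC2-like (5) and 0 to 853 in gamma-delta T-like cells (2). From 0 they reached 1561 in CD4 conventional T-like, 407 in B-like, 381 in NK-like and 258 in CD8 T-like cells.

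The members' median log2 fold change moved beyond its spread between libraries in these cases. In the lower total it was 0.57 in NK-like, 0.81 in CD8 T-like and 0.11 in Treg-like cells. In the higher total it was 0.25 in NK-like, 0.043 in CD4 conventional T-like, -0.93 in Treg-like and 0.56 in gamma-delta T-like cells. It was 0.38 in gamma-delta T-like cells with the stricter gate, and in B-like cells 1.03 with DESeq2 and 0.97 with no filter, which tests more members there. Leaving out 1 library gave 0.18 (without BrM 1) to 0.53 in NK-like, 0.056 (without BrM 1) to 0.46 in CD4 conventional T-like, 0.0061 (without MFP 3) to 0.40 (without BrM 2) in gamma-delta T-like and 0.15 to 0.95 (without MFP 3) in B-like cells.

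Between classes, the members called in Treg-like against CD4 conventional T-like cells fell from 4, Ifi204 included, to 2 with the stricter gate. The sign turned in 8 cases, over 6 differences that had not passed the test. With the stricter gate, Ifi209 became 0.22 in NK-like cells (edgeR adjusted p = 0.050, below the threshold before rounding), Ifi203 0.021 and Ifi213 0.36 in Treg-like cells, and the interaction of Ifi204 in NK-like cells 0.14. With library-size scaling, Ifi203 became 0.031, Ifi206 0.013 and Ifi213 0.043 in Treg-like cells, and Ifi213 -0.051 in B-like cells. Where a value moved without a named reason, the cause was not tested. Of 280 mean levels recomputed with the stricter gate or without the top 5% of cells, 15 moved by more than 1 SD. Classes under 20 cells in a library gave no value there, and members under 10 CPM rest on few molecules.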
